A study of Danio rerio with 12 samples.

Results

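The lens crystallins were described here as the genes whose symbol in the zebrafish gene name table begins, in capitals or lower case, with *cryaa*, *cryab*, *cryba*, *crybb* or *cryg*. This rule found 57 genes among the 37541 identifiers of the files, and it used no measured value. The crystallins as a subject were, however, chosen with earlier results of these data known. They were 3 alpha crystallins, 13 beta crystallins (7 of the acidic beta A and 6 of the basic beta B group) and 41 gamma crystallins, of which 35 carried a *crygm* symbol (gamma M) and 6 a gamma N or gamma S symbol. Several symbols are written in the human style in that table, and where 2 zebrafish genes share one they are told apart here by chromosome. RNA of whole AB larvae was sequenced in 12 libraries, 3 of homozygous mutants (ercc2/xpd -/-) and 3 of siblings (ercc2/xpd+/+ & ercc2/xpd+/-, wild type and heterozygous together) at 5 days post-fertilization (dpf), and as many of each at 7 dpf. The mutant allele, which heterozygous siblings also carry in 1 copy, is a small frameshift deletion made with CRISPR/Cas9 near the end of *ercc2/xpd*, which encodes a helicase of the transcription and repair complex TFIIH. Larvae were pooled for each library, a single mutant allele was used, and the lens was not dissected. The question put to the crystallins was whether their transcripts differed between mutant and sibling larvae at each age, and whether the alpha, beta and gamma classes differed alike.

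Crystallins are the soluble proteins that fill the elongated fibre cells of the lens and give it its refractive power. Alpha crystallins belong to the small heat shock proteins and keep other proteins from aggregating, whereas beta and gamma crystallins are compact structural proteins built from Greek key folds. Gamma M crystallins are the methionine-rich gamma class of the dense fish lens, gamma N crystallins have features of both the beta and the gamma class, and gamma S is the gamma crystallin that mammals add late. Lens fibre cells make these proteins in large amounts while they differentiate, before they lose their nuclei and organelles. In larval zebrafish the lens is a small part of the body, so that a level in whole larvae follows both the number of fibre cells and the transcript in each, and in these bulk samples the 2 cannot be told apart.

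Levels are in FPKM (fragments per kilobase of transcript, scaled by a library term). Values in a row are replicates 1, 2 and 3, and a gene was tested if it reached 0.5 FPKM in 3 of the 12 libraries. Changes are log2 differences of FPKM + 0.5, which understate the change of low genes, with their SE and a p-value from limma adjusted over all 23648 tested genes by Benjamini and Hochberg, and a gene was called under 0.05. The recovered depth was 13403615 to 15084280 reads a library. The library term of the deposited FPKM differed from this depth, in both directions and partly along with genotype. A term above the depth lowers the FPKM. In mutants it lay above the depth in all libraries but replicate 3 at 7 dpf. In siblings it lay above the depth in replicates 1 and 3 at 5 dpf and below it in the others. It was 13022800 against 14784445 recovered reads in sibling replicate 2 at 5 dpf, and 16782000 against 14816326 in mutant replicate 3 at 5 dpf. The targeted gene *ercc2* (ENSDARG00000021985, chromosome 15) was lower in all mutant libraries than in all sibling libraries of the same age (2.56 to 3.14 against 3.78 to 5.23 FPKM at 5 dpf, 2.96 to 3.57 against 4.26 to 6.38 FPKM at 7 dpf), although it was not called (adjusted p = 0.201 and 0.0612). Within their groups the libraries did not rank alike for the crystallins and for all genes. Mutant replicate 1 at 7 dpf was the highest of its group for 39 of 42 tested crystallins against 34.8% of all tested genes, and its summed crystallin FPKM was 4.84 times the mean of the other 2. Sibling replicate 2 at 7 dpf was the lowest of its group for 40 of 42, and sibling replicate 2 at 5 dpf had the highest summed FPKM over all genes (688416 against 477291 to 612894 in the other 11 libraries).

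The summed crystallin transcript was about one order of magnitude lower in mutants at both ages. At 5 dpf the summed FPKM of the 57 genes was 2938, 3694 and 4638 in the sibling libraries (mean 3757 ± 852, SD, n = 3) and 333, 582 and 215 in the mutant libraries (mean 377 ± 187, SD, n = 3), a 9.97-fold difference of the means. At 7 dpf it was 3149, 1995 and 4185 in siblings and 860.4, 173 and 182 in mutants, a 7.67-fold difference. All mutant libraries lay below all sibling libraries of their age, and the spread between the mutant libraries at 7 dpf was set by replicate 1, which reached 43.1% of the lowest sibling library. No p-value is given for such sums, since the genes were chosen as a list.

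Every class was lower in the mutant mean, by different factors at 5 dpf. Gamma M crystallins made up most of the transcript, with a summed FPKM of 2222, 2663 and 3211 in siblings against 292, 466 and 172 in mutants at 5 dpf (8.7-fold), and 2460.2, 1544 and 2963 against 599, 126 and 132 at 7 dpf (8.13-fold). Beta A crystallins differed by 14.8-fold at 5 dpf (325, 466 and 678 against 24.8, 53.4 and 21.3) and by 6.37-fold at 7 dpf (321, 224 and 608 against 136, 21.6 and 22.9). Beta B crystallins differed by 14.6-fold (85.4, 99.8 and 153 against 6.51, 10.9 and 5.68) and 5.84-fold (86.4, 61.99 and 159 against 29.9, 9.44 and 13.3). With all libraries included, the ratio of the gamma M class was thus close at both ages, whereas that of both beta groups at 7 dpf was under the ratio at 5 dpf. Gamma N and S crystallins, almost all of it 1 gamma N gene, differed by 18-fold and 7.41-fold. The alpha class was the smallest, with 2.61, 3.04 and 6.19 FPKM in siblings and 0.461, 0.740 and 0.385 in mutants at 5 dpf (7.47-fold) and 3.37, 1.97 and 7.64 against 3.95, 0.773 and 0.548 at 7 dpf (2.46-fold). The 2 untested alpha genes, near 0, made up a large part of the mutant sum at 5 dpf. CRYAA alone differed by 12.6-fold at 5 dpf, with 6 to 8 reads in each mutant library, and by 2.39-fold at 7 dpf. In the alpha class at 7 dpf alone the mutant libraries overlapped with the siblings, through replicate 1. Without that library the log2 ratios at 7 dpf were -2.71 for alpha, -4.11 for beta A, -4.17 for gamma M and -4.36 for gamma N and S, against -1.30, -2.67, -3.02 and -2.89 with it, and the ratio of beta B was then -3.17 against -2.55. At 5 dpf the log2 ratios were -3.88 for beta A, -3.87 for beta B and -3.12 for gamma M. Leaving out the highest mutant library at 7 dpf alone thus gave a larger difference than at 5 dpf for gamma M and a smaller one for beta B. For beta A the order of the ages depended on the library left out, since its ratio at 5 dpf ran from -4.41 to -3.57 over left-out libraries. In the gene fits without mutant replicate 1 at 7 dpf, 4 of the 6 tested beta A genes still had a smaller effect at 7 dpf. For gamma N and S at 5 dpf the ratio was -5.18 without mutant replicate 2, against -4.17 with it.

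**Figure D1:**
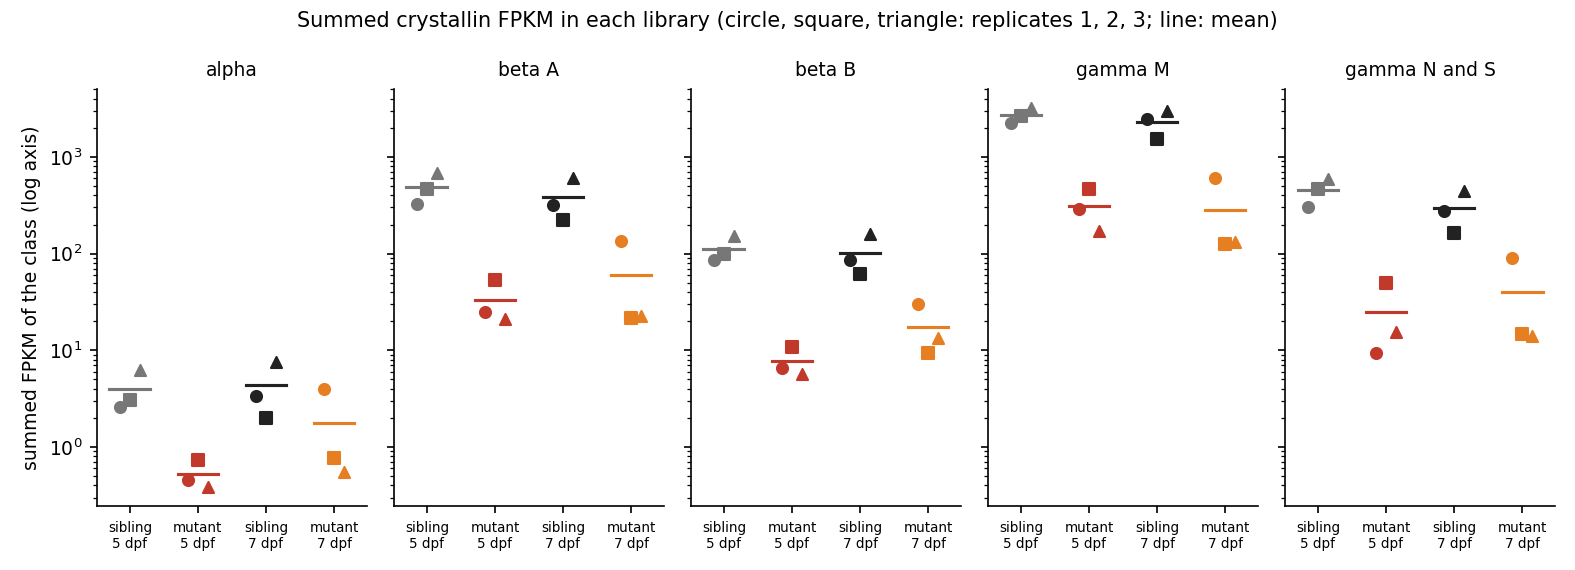
Summed FPKM of each crystallin class in each library on a log axis (circle, square and triangle, replicates 1, 2 and 3) with the group mean as a line. Mutant libraries lie below all sibling libraries of their age in every class except alpha at 7 dpf, where mutant replicate 1 reaches 3.95 FPKM against 1.97 FPKM in the lowest sibling library.

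Gene by gene, 42 of the 57 crystallins could be tested, and nearly all were lower in mutants. At 5 dpf 31 were called lower and 0 higher, against 2.16% of all 23648 tested genes called lower and 0.655% called higher. At 7 dpf 32 were called lower and 0 higher, against 3.25% lower and 1.80% higher over all genes. Of these lower calls, 16 at 5 dpf and 20 at 7 dpf fell on 21 close copies named *crygm2d*, which may share reads and are not separate observations. No crystallin was higher at an unadjusted p under 0.05 at either age, and limma's voom on the recovered reads also called 0 higher and 26 lower at each age. Over all tested genes voom called 1.55% lower and 0.994% higher at 5 dpf, while its calls at 7 dpf were 2.17% on the lower and 4.51% on the higher side. The median log2 change of the 42 was -2.98 at 5 dpf and -2.86 at 7 dpf, where the median over all tested genes was 0.02 and 0.01. The 3 mutant libraries were all below the 3 sibling libraries for 37 of 42 at each age, against 10.3% of all tested genes at 5 dpf and 12.9% at 7 dpf.

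Of the 42, 27 were called lower at both ages. The 4 called at 5 dpf alone were CRYAA, *cryba1l2*, *crygmx* and CRYGN on chromosome 2, and the 5 called at 7 dpf alone were *crygm2d15*, *crygm2d20*, *crygm2d3*, *crygm2d5* and *crygm5*. The 6 called at neither age were *crybb1l3*, *crygm2d9* and the low-level gamma M genes *crygm1*, *crygm2b*, *crygm2e* and *crygmxl1*. These splits are counts of calls and not tests of a difference between the ages. The count at 5 dpf was 20 without mutant replicate 1 of that age. At 7 dpf it was 16 without mutant replicate 2 or sibling replicate 3, 19 without mutant replicate 3 or sibling replicate 1, 19 in a fit of the 2 groups alone, and 36 without mutant replicate 1. Over the single genes, 20 calls at 5 dpf and 15 at 7 dpf stood under each of 24 alternative settings.

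**Figure D2:**
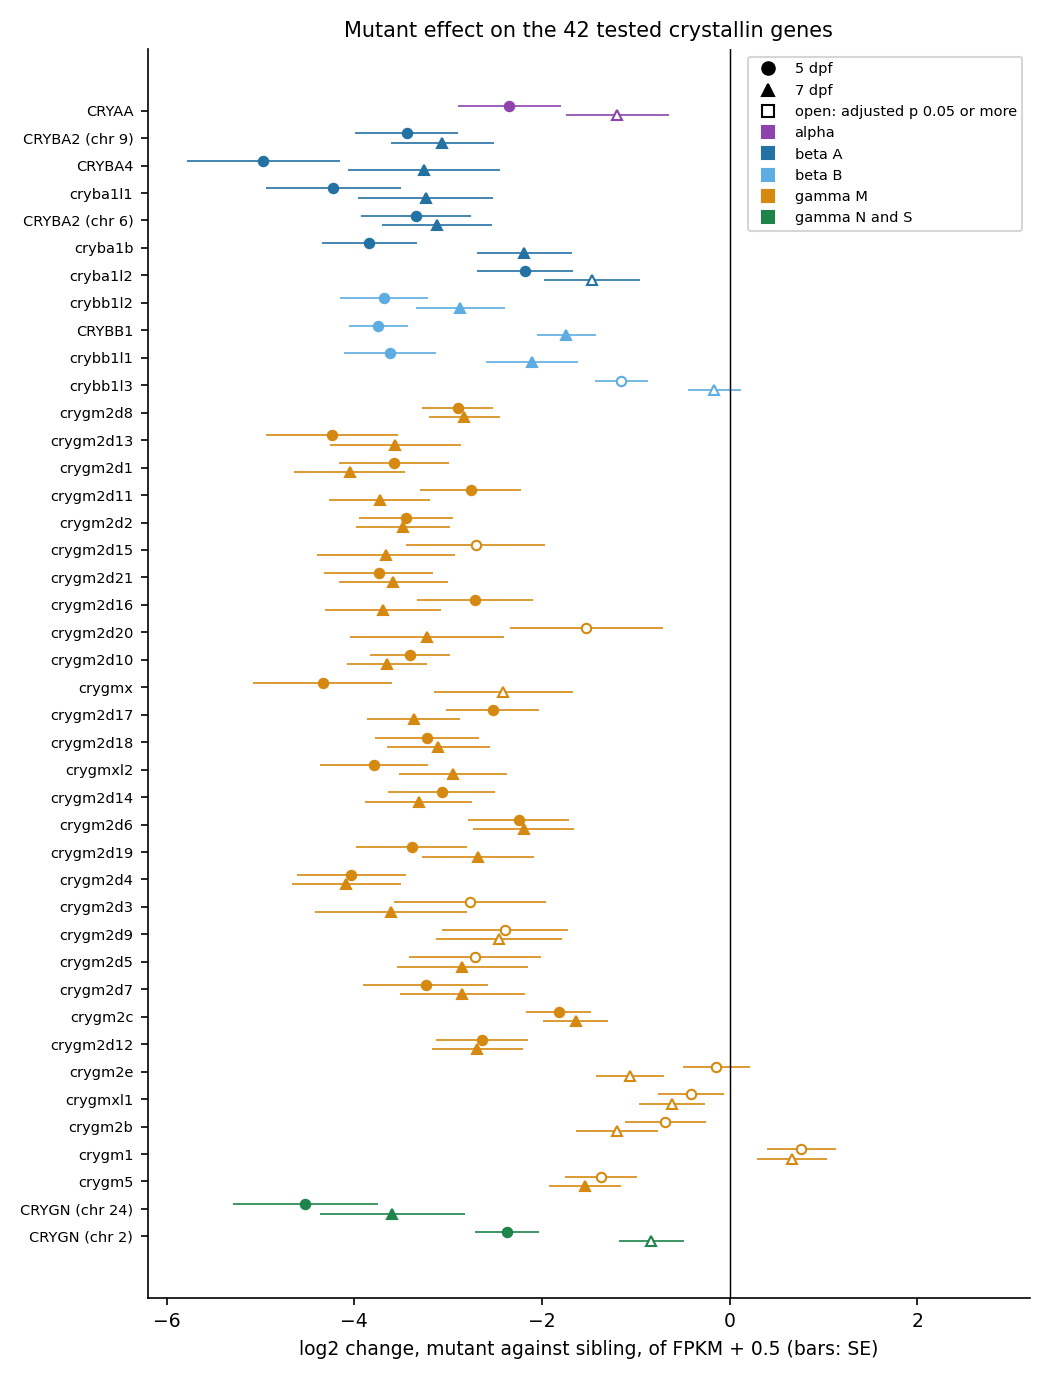
Log2 change between mutants and siblings of FPKM + 0.5 for the 42 tested crystallins (circles, 5 dpf; triangles, 7 dpf; bars, SE; filled, adjusted p under 0.05), ordered by class and level. All but *crygm1* lie below 0 at both ages, from -4.97 for CRYBA4 at 5 dpf to 0.76 for *crygm1*.

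Among the alpha crystallins, only CRYAA (ENSDARG00000053502, chromosome 1 from 29096881 to 29100923 of GRCz11), which encodes the lens alpha A chaperone, passed the filter, and its level was low. Its FPKM was 2.56, 2.93 and 6.12 in siblings and 0.363, 0.266 and 0.294 in mutants at 5 dpf. At 7 dpf it was 3.05, 1.74 and 7.40 in siblings and 3.90, 0.727 and 0.466 in mutants. The groups were apart at 5 dpf (log2 change -2.35, SE 0.55, adjusted p = 0.0412) and overlapped at 7 dpf, where mutant replicate 1 lay among the siblings (log2 change -1.20, SE 0.55, adjusted p = 0.255). The call at 5 dpf was lost in 14 of 24 alternative settings (adjusted p = 0.0095 to 0.14), the pairing of same-numbered libraries among them (adjusted p = 0.0694 with the replicate block), and at 7 dpf the gene was called without mutant replicate 1 (log2 change -1.87, adjusted p = 0.0421). The 2 genes named CRYAB, for alpha B crystallin, which muscle and other tissues also use, were near 0. The copy on chromosome 5 (ENSDARG00000101380) was at 0.049, 0.058 and 0.024 FPKM in siblings and 0.097, 0.333 and 0.090 in mutants at 5 dpf, and at 0.316, 0.233 and 0.176 and 0, 0 and 0.028 at 7 dpf. The copy on chromosome 15 (ENSDARG00000042621) was at 0, 0.058 and 0.048 and 0, 0.141 and 0 at 5 dpf, and at 0, 0 and 0.058 and 0.048, 0.045 and 0.055 at 7 dpf. The copy on chromosome 5 was higher in all mutant libraries at 5 dpf and lower in all of them at 7 dpf, and the other copy overlapped at both ages. With 53 and 9 reads in all 12 libraries together, neither was tested, and the model of the first overlaps CFAP68 on the opposite strand.

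The beta A crystallins, acidic subunits that pair with beta B subunits, were called lower for 6 of 6 tested genes at 5 dpf and 5 of 6 at 7 dpf, with median log2 changes of -3.64 and -3.09. CRYBA2 on chromosome 9 (ENSDARG00000041925, from 11554089 to 11560432) had the highest level of the group, with 123, 162 and 235 FPKM in siblings and 13.96, 23.2 and 10.3 in mutants at 5 dpf. It was at 122, 100.1 and 219.7 in siblings and 47.8, 8.999 and 9.66 in mutants at 7 dpf. The mutant libraries lay below the siblings at both ages (log2 change -3.44, SE 0.55, adjusted p = 0.00472, and log2 change -3.06, SE 0.55, adjusted p = 0.00648), and both calls stood in all 24 alternative settings. CRYBA4 (ENSDARG00000024548, chromosome 10 from 44042033 to 44051808) had the largest change of any crystallin at 5 dpf. Its levels were 72.7, 122 and 162 FPKM in siblings and 1.25, 8.35 and 2.57 in mutants at 5 dpf (log2 change -4.97, SE 0.81, adjusted p = 0.00537). At 7 dpf they were 70.01, 37.7 and 129 and 31.5, 3.12 and 2.96 (log2 change -3.25, SE 0.81, adjusted p = 0.0389), with mutant replicate 1 far above the other mutant libraries and still under the lowest sibling. This call at 7 dpf was lost without mutant replicate 2 or 3, without any of the siblings of that age, or without mutant replicate 3 or sibling replicate 2 at 5 dpf (adjusted p = 0.0512 to 0.145).

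*cryba1l1* (ENSDARG00000032929, chromosome 14 from 46313135 to 46321016) and *cryba1b* (ENSDARG00000053875, chromosome 21 from 39185461 to 39195314) followed the same order of groups. *cryba1l1* was at 63.4, 96.5 and 142 FPKM in siblings and 3.15, 9.18 and 3.32 in mutants at 5 dpf, and at 64.7, 42.6 and 137 and 29.9, 3.25 and 3.54 at 7 dpf. *cryba1b* was at 18.7, 19.1 and 36.9 and 0.710, 2.41 and 0.867 at 5 dpf, and at 19.8, 11.2 and 41.2 and 8.49, 2.86 and 2.98 at 7 dpf. No mutant library reached a sibling library of its age in either gene. The log2 changes were -4.23 and -3.24 for *cryba1l1* (adjusted p = 0.00721 and 0.0223) and -3.84 and -2.19 for *cryba1b* (adjusted p = 0.00174 and 0.0285). Without mutant replicate 2 or 3 or sibling replicate 1 or 3 at 7 dpf, *cryba1l1* (adjusted p = 0.0596 to 0.0975) and *cryba1b* (0.0737 to 0.112) lost their calls at that age. The second CRYBA2 gene, on chromosome 6, changed by -3.34 and -3.12 (adjusted p = 0.00846 and 0.00852). The low *cryba1l2* (mean over 12 libraries 2.86 FPKM) changed by -2.18 (adjusted p = 0.0412, and 0.0777 with the replicate block), a call lost in 13 of 24 alternative settings (adjusted p up to 0.145). It was not called at 7 dpf, where its groups overlapped (-1.47, adjusted p = 0.130), except without mutant replicate 1 (-1.97, adjusted p = 0.0451). CRYBA1 on chromosome 15, at 0.0300 to 0.323 FPKM, was not tested, and its model overlaps *crybb1l3* and UNC119 on the opposite strand.

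The beta B crystallins, the basic partners, were called lower for 3 of 4 tested genes at both ages, with median log2 changes of -3.65 and -1.92. *crybb1l2* (ENSDARG00000016793, chromosome 1 from 44439661 to 44448387) was the most abundant, at 63.6, 65.1 and 116 FPKM in siblings and 4.85, 8.45 and 4.31 in mutants at 5 dpf (log2 change -3.69, SE 0.47, adjusted p = 0.00148). It was at 65.9, 46.6 and 113 and 21.1, 4.97 and 7.18 at 7 dpf (log2 change -2.87, SE 0.47, adjusted p = 0.00386). CRYBB1 (ENSDARG00000068507, chromosome 10 from 44021147 to 44027391) had the smallest adjusted p of all crystallins at 5 dpf, and both of its calls stood in all 24 alternative settings. Its levels were 12.01, 19.2 and 15.00 FPKM in siblings and 0.637, 0.934 and 0.472 in mutants at 5 dpf (log2 change -3.74, SE 0.31, adjusted p = 0.000188). At 7 dpf they were 10.1, 9.14 and 23.9 and 3.65, 2.88 and 4.28 (log2 change -1.74, SE 0.31, adjusted p = 0.00669), so that the 3 mutant libraries at 7 dpf lay above the 3 at 5 dpf and still below all siblings. Mutant replicate 1 did not stand out in CRYBB1 at 7 dpf, in contrast to the other abundant beta genes.

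*crybb1l1* (ENSDARG00000007576, chromosome 14 from 46301973 to 46310549) was at 8.89, 14.2 and 19.9 FPKM in siblings and 0.550, 1.10 and 0.396 in mutants at 5 dpf (log2 change -3.62, SE 0.49, adjusted p = 0.00192). It was at 9.93, 6.03 and 22.1 and 4.87, 1.28 and 1.53 at 7 dpf (log2 change -2.10, SE 0.49, adjusted p = 0.0287). The groups were apart at both ages, and the mutant libraries at 7 dpf again lay above those at 5 dpf. Its call at 7 dpf was lost without mutant replicate 2 or 3 or sibling replicate 1 or 3 of that age (adjusted p = 0.0696 to 0.116). *crybb1l3*, at 0.0922 to 1.59 FPKM, had all mutant libraries below the siblings at 5 dpf without a call (-1.16, adjusted p = 0.0513, and 0.0259 without sibling replicate 1) and overlapping groups at 7 dpf (-0.16, adjusted p = 0.809). CRYBB2 and CRYBB3, main beta crystallins of the mammalian lens, were at 0.306 FPKM or less in every library and were not tested. Several beta A and beta B genes sit side by side in the genome, with CRYBB1 and CRYBA4 on chromosome 10 (44021147 to 44051808), *cryba1l2* and *crybb1l2* on chromosome 1 (44421920 to 44448387) and *crybb1l1* and *cryba1l1* on chromosome 14 (46301973 to 46321016). Levels within a pair were far apart, as for *cryba1l2* and *crybb1l2* (12-library means of 2.86 and 43.4 FPKM), and the log2 changes at 5 dpf were -2.18 and -3.69 in that pair and -4.97 and -3.74 for CRYBA4 and CRYBB1.

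The gamma M crystallins were the largest class and the most uneven in level. Most of them lie in a cluster of 34 gamma genes on chromosome 9 from 21993092 to 22366295 (GRCz11, 373 kb), which holds 21 consecutive genes named *crygm2d1* to *crygm2d21*, all on the minus strand over 248 kb, with 8 other gamma genes before them and 5 after them. The mean level of the *crygm2d* genes in siblings at 5 dpf ran from 4.69 to 456 FPKM with a median of 77.7 FPKM, and that of the 13 others from 0 to 3.90 FPKM with a median of 0.339 FPKM. At 7 dpf the ranges in siblings were 5.74 to 322 FPKM and 0 to 6.58 FPKM. In mutants the *crygm2d* genes ranged from 0.328 to 63.4 FPKM at 5 dpf and 0.347 to 49.2 FPKM at 7 dpf, so that their median was 11.1 and 7.97 FPKM. The *crygm2d* genes are close copies, and the assignment of reads that match several of them was a step not given in the sources used here, so that the level of a single copy is uncertain. Their summed FPKM also depends on how such reads were divided among the copies, since each is scaled by its own gene length. That length is 623 bases for *crygm2d15* and 2177 bases for *crygm2d17*. If such reads were left out, the sum and the gamma M total would be too low as well. That sum was 2112, 2490.4 and 2950.1 FPKM in siblings and 282, 441 and 161 in mutants at 5 dpf, and 2351, 1471 and 2744 and 542, 111 and 117 at 7 dpf. No mutant library reached a sibling library of its age.

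**Figure D3:**
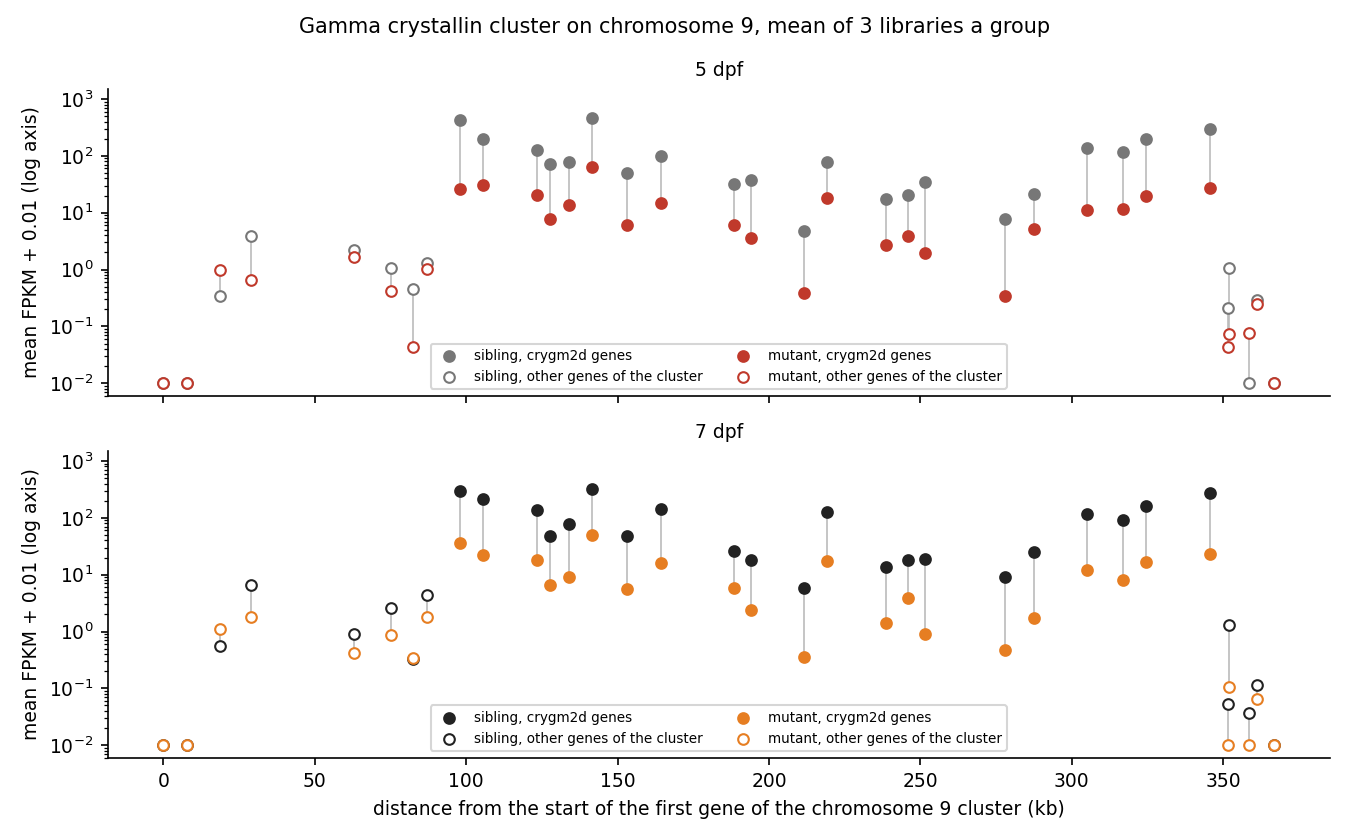
Mean FPKM (+ 0.01, log axis) of the 34 genes of the chromosome 9 cluster against the distance of each gene from the start of the first, at 5 dpf (top; grey, siblings; red, mutants) and 7 dpf (bottom; black, siblings; orange, mutants). The 21 *crygm2d* genes (filled) occupy the middle of the cluster at 4.69 FPKM or more in siblings, and the 13 genes on both sides (open) stay at 6.58 FPKM or less.

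Of the 29 gamma M genes tested, 19 were called lower at 5 dpf and 23 at 7 dpf, with median log2 changes of -2.76 and -2.95. Among the *crygm2d* genes alone these counts were 16 of 21 and 20 of 21, and every one of the 21 had a fitted change below 0 at both ages (medians -2.90 and -3.37). If reads were divided among these copies, their changes would be alike for that reason too. The 21 are thus not separate observations. *crygm2d8* (ENSDARG00000116164, from 22134731 to 22135576) was the most abundant, at 375, 476 and 516 FPKM in siblings and 68.8, 83.8 and 37.6 in mutants at 5 dpf (log2 change -2.90, SE 0.38, adjusted p = 0.00162). It was at 339, 235 and 393 and 84.1, 32.9 and 30.5 at 7 dpf (log2 change -2.83, SE 0.38, adjusted p = 0.00100). The spread between the libraries of a group was small beside the difference, and the calls stood in all 24 alternative settings at both ages. *crygm2d13* (ENSDARG00000057460, from 22091161 to 22092089) was at 307, 421 and 574 FPKM in siblings and 15.3, 48.96 and 13.6 in mutants at 5 dpf (log2 change -4.24, SE 0.70, adjusted p = 0.00586). It was at 309, 163 and 402 and 85.7, 10.7 and 12.3 at 7 dpf (log2 change -3.56, SE 0.70, adjusted p = 0.0112), with mutant replicate 1 high and still under the lowest sibling, and lost its call there without mutant replicate 2 or sibling replicate 3 (adjusted p = 0.0531 and 0.0511).

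At the other end of the array, *crygm2d1* (ENSDARG00000087324, from 22338578 to 22339582) was at 268, 350.3 and 285 FPKM in siblings and 29.6, 40.1 and 12.4 in mutants at 5 dpf, and at 330.2, 189 and 310.1 and 51.1, 8.85 and 8.37 at 7 dpf. Its neighbour *crygm2d2* (ENSDARG00000086917, from 22317479 to 22318511) was at 168, 218 and 207 and 29.2, 22.8 and 7.94 at 5 dpf, and at 190.5, 122 and 175 and 32.3, 7.66 and 10.4 at 7 dpf. *crygm2d10* (ENSDARG00000087765, from 22309838 to 22310919) was at 109, 130.3 and 114 and 13.7, 15.4 and 5.54 at 5 dpf, and at 113, 75.3 and 88.1 and 14.7, 3.84 and 5.32 at 7 dpf. In these 3 genes the mutant libraries lay below every sibling library at both ages, and replicate 1 was the highest mutant library at 7 dpf. The log2 changes at 5 and 7 dpf were -3.58 and -4.05 for *crygm2d1* (adjusted p = 0.00569 and 0.00166), -3.45 and -3.48 for *crygm2d2* (0.00284 and 0.00161) and -3.41 and -3.65 for *crygm2d10* (0.00137 and 0.000382).

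*crygm2d11* (ENSDARG00000069827, from 22098575 to 22099536) was at 168, 201 and 221 FPKM in siblings and 29.3, 42.8 and 18.2 in mutants at 5 dpf, and at 218, 168 and 265 and 47.7, 6.48 and 11.9 at 7 dpf. *crygm2d17* (ENSDARG00000069817, from 22127117 to 22129839) was at 75.3, 66.4 and 91.5 and 12.95, 20.2 and 8.27 at 5 dpf, and at 83.8, 52.00 and 99.7 and 19.1, 4.15 and 3.94 at 7 dpf. *crygm2d4* (ENSDARG00000087164, from 22244537 to 22245572) was at 32.7, 33.9 and 36.5 and 2.32, 3.18 and 0.430 at 5 dpf, and at 25.02, 18.99 and 11.5 and 2.37, 0.219 and 0.088 at 7 dpf, where the mutant libraries of replicates 2 and 3 held next to no reads of it. The groups were apart in all 3 genes at both ages. The fitted changes were -2.76 and -3.73 for *crygm2d11* (adjusted p = 0.0157 and 0.00162), -2.53 and -3.37 for *crygm2d17* (0.0160 and 0.00189) and -4.03 and -4.09 for *crygm2d4* (0.00279 and 0.00149), the last being the largest change of any crystallin at 7 dpf. At 5 dpf *crygm2d11* and *crygm2d17* lost their calls without mutant replicate 1 or 3 or sibling replicate 2 or 3 (adjusted p = 0.0562 to 0.067 and 0.0517 to 0.0664).

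*crygm2d20* (ENSDARG00000091148, from 22212241 to 22213348) departed from its neighbours in 1 library, and it was chosen for description after its values were seen. It was at 86.03, 10.8 and 140.2 FPKM in siblings and 17.01, 25.2 and 12.4 in mutants at 5 dpf, and at 140.3, 87.9 and 146 and 37.5, 5.81 and 8.80 at 7 dpf. Sibling replicate 2 at 5 dpf was thus lower than all mutant libraries of that age, although its other *crygm2d* genes were at sibling levels. The gene held 0.435% of the summed *crygm2d* FPKM in that library and 4.07% to 7.66% in the other 11. It was not called at 5 dpf (-1.52, adjusted p = 0.429) nor without this library alone (-2.62, adjusted p = 0.0703), and was called there without both this library and mutant replicate 1 at 7 dpf, a setting added after seeing the data (-2.62, adjusted p = 0.00469). At 7 dpf it was called (-3.23, adjusted p = 0.0424), which was lost in 12 of 24 alternative settings (adjusted p up to 0.152). Among the rest of the array, *crygm2d6* lost its call at 5 dpf in 14 of 24 alternative settings (adjusted p = 0.0442 as fitted and up to 0.152), the replicate block among them (0.0567). With the block *crygm2d5* gained a call at 5 dpf (adjusted p = 0.0655 without and 0.0111 with it), and the models of *crygm2d14* and *crygm2d16* overlap on the same strand.

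The flanking genes of the cluster were low and mixed. *crygm2c* was called lower at both ages (log2 change -1.82 and -1.64, adjusted p = 0.0124 and 0.0157), with 2.59 to 6.42 FPKM in siblings and 0.629 to 0.695 FPKM in mutants at 5 dpf. Its call at 5 dpf was lost without mutant replicate 1 (adjusted p = 0.0557), and that at 7 dpf without mutant replicate 2 or 3 or sibling replicate 1 or 3 (0.0579 to 0.072). *crygm5* was called at 7 dpf alone (-1.54, adjusted p = 0.0398), at 0.352 to 2.03 FPKM in siblings and 0 to 0.291 FPKM in mutants over both ages. That call was lost without any of the mutant libraries at 5 dpf, mutant replicate 2 or 3 or sibling replicate 1 or 3 at 7 dpf (adjusted p = 0.0517 to 0.146), and without sibling replicate 2 the gene was called at 5 dpf (-1.75, adjusted p = 0.0405). *crygm1* was the 1 gene fitted above 0 at both ages. Its FPKM was 0.107, 0.380 and 0.530 in siblings and 1.49, 0.415 and 0.983 in mutants at 5 dpf, and 0.501, 0.127 and 1.03 and 0.734, 1.000 and 1.57 at 7 dpf, with overlapping groups and no call (0.76 and 0.67, adjusted p = 0.374 and 0.355). *crygm2e*, *crygm2b* and *crygmxl1* were not called at either age, with log2 changes of -0.14 to -1.20, and the groups of all 3 overlapped at 5 dpf and were apart at 7 dpf. Depth was limiting here, with 80 reads of *crygm1* and 124 of *crygm2b* in all 12 libraries.

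Outside the cluster, *crygmx* and *crygmxl2* lie next to each other on chromosome 12 (30838167 to 30846055). *crygmx* (ENSDARG00000053862) had the largest change of the gamma M class at 5 dpf, at 55.99, 116 and 147 FPKM in siblings and 1.75, 12.1 and 3.65 in mutants (log2 change -4.34, SE 0.74, adjusted p = 0.00737). At 7 dpf it was at 48.3, 40.02 and 139.7 in siblings and 35.96, 7.43 and 5.88 in mutants, where the groups did not overlap and the gene was not called (log2 change -2.41, SE 0.74, adjusted p = 0.0880). Without mutant replicate 1, whose 36.0 FPKM lay near the lowest sibling, it was called at 7 dpf (-3.20, adjusted p = 0.0229). *crygmxl2* changed by -3.79 and -2.95 (adjusted p = 0.00358 and 0.0110), and was not called at 7 dpf without mutant replicate 2 or sibling replicate 3 (0.0536 and 0.0517). *crygm4* on chromosome 6 had 6 reads in all and was not tested.

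The 2 gamma N genes were lower in mutants and far apart in level, with 12-library means of 198 and 5.42 FPKM. CRYGN on chromosome 24 (ENSDARG00000030411, from 41305391 to 41312459) was one of the most abundant crystallins, with the most reads of all 57. It was at 298, 454 and 578 FPKM in siblings and 8.40, 48.9 and 14.2 in mutants at 5 dpf (log2 change -4.52, SE 0.77, adjusted p = 0.00737), and at 271, 158 and 434 and 86.3, 11.7 and 9.49 at 7 dpf (log2 change -3.59, SE 0.77, adjusted p = 0.0186). The groups were apart at both ages, with mutant replicate 2 high among the mutants at 5 dpf and replicate 1 at 7 dpf. Its call at 7 dpf was lost without mutant replicate 2 or 3 or sibling replicate 1 or 3 (adjusted p = 0.0592 to 0.0838). CRYGN on chromosome 2 (ENSDARG00000102129, from 51783120 to 51815413) was at 4.92, 8.67 and 11.6 FPKM in siblings and 1.07, 1.16 and 1.16 in mutants at 5 dpf (log2 change -2.37, SE 0.34, adjusted p = 0.00284), and at 6.32, 4.77 and 13.3 and 4.58, 2.92 and 4.54 at 7 dpf (log2 change -0.83, SE 0.34, adjusted p = 0.204). Its groups were still apart at 7 dpf, though closely, and the gene was not called there under any of the 24 alternative settings. The gamma S genes were all but unread. CRYGS on chromosome 22 (ENSDARG00000042992) was at 0.179, 0.071 and 0.177 FPKM in siblings and 0, 0 and 0 in mutants at 5 dpf, and at 0.140, 0.142 and 0.072 and 0, 0 and 0.068 at 7 dpf, from 13 reads in all, and the mutant libraries held 1 of them.

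Altogether 15 crystallins stayed under the filter, at 0.801 FPKM or less in every library. *crygm6*, *crygm7* and *crygs4* had 0 reads in all 12 libraries. At these depths a count of 0 allows up to 3 reads a library, which is at most 0.380, 0.271 and 0.324 FPKM for the 3 genes and covers counting error only. The other 12 had 1 to 53 reads in all, and most of their groups overlapped. CRYAB on chromosome 5, CRYBA1 and CRYGS on chromosome 22 had groups apart at both ages and *crygm2a* at 5 dpf, with 13 to 53 reads a gene. The mutant libraries lay below the siblings at both ages for CRYGS on chromosome 22 alone among these, and for CRYBA1 they lay below at 5 dpf and above at 7 dpf. With no filter on low values 1 of the 12 was called between mutants and siblings, CRYAB on chromosome 5 at 7 dpf (log2 change -0.54, adjusted p = 0.0466). A use of strand in the counting was not given in the sources used here, and 14 of the 57 crystallins had a gene model that overlaps another.

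The make-up of the crystallin transcript also differed between the groups. At 5 dpf beta crystallins held 13.96, 15.3 and 17.9% of the summed crystallin FPKM in siblings and 9.41, 11.1 and 12.6% in mutants, so that all mutant libraries were below all siblings. At 7 dpf they held 12.95, 14.3 and 18.3% in siblings and 19.3, 17.95 and 19.8% in mutants, where the mutant libraries were at the upper end and overlapped with sibling replicate 3. Gamma M crystallins held 75.6, 72.1 and 69.2% in siblings and 87.6, 80.2 and 80.1% in mutants at 5 dpf, and 78.1, 77.4 and 70.8% and 69.6, 73.2 and 72.1% at 7 dpf. Their share was higher in every mutant than in every sibling library at 5 dpf, and the groups overlapped at 7 dpf. Alpha crystallins, at 0.0823% to 0.183% in siblings, reached 0.301% to 0.459% in mutants at 7 dpf. These shares are given as a description with no test.

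**Figure D4:**
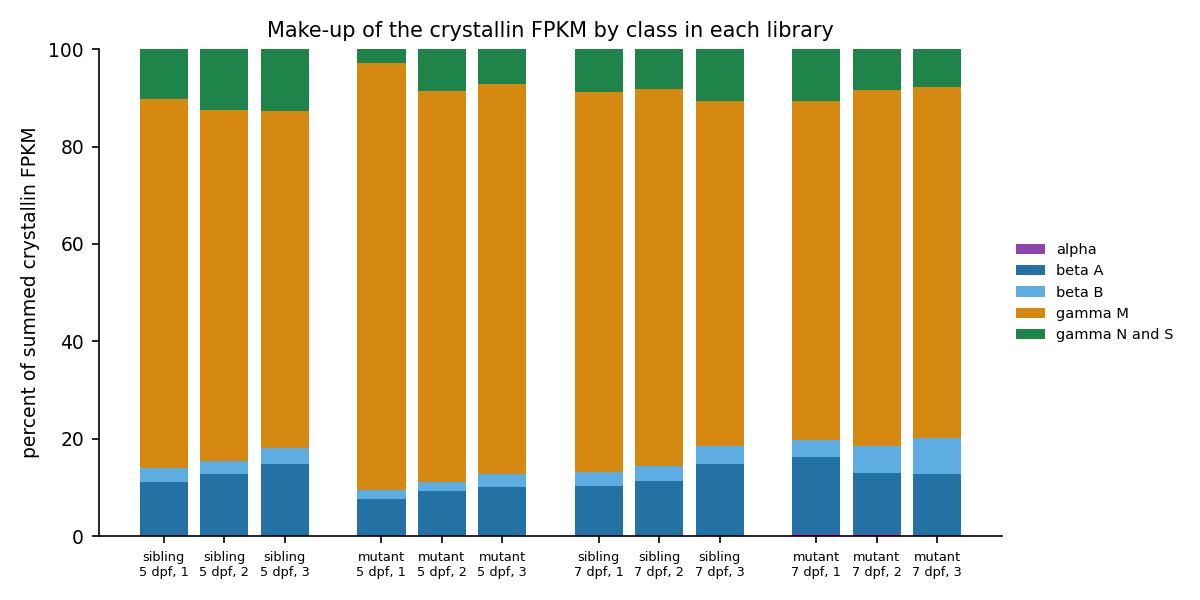
Share of each crystallin class in the summed crystallin FPKM of each library, in percent. Gamma M holds 69.2% to 87.6% in all 12 libraries, and the beta share of mutant libraries is 9.41% to 12.6% at 5 dpf and 18.0% to 19.8% at 7 dpf.

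Few crystallins were called between 5 and 7 dpf. In siblings 1 was called lower and 1 higher at 7 dpf, against 13.0% of all tested genes lower and 12.3% higher. They were *crybb1l3* (log2 change -0.93, SE 0.28, adjusted p = 0.0312) and *crygm2e* (log2 change 1.51, SE 0.36, adjusted p = 0.00942), both low. The first call was lost without sibling replicate 2 or 3 at 5 dpf or 1 or 2 at 7 dpf (adjusted p = 0.0696 to 0.114), and the second stood in all 23 alternative settings. Over the 42 crystallins the median change in siblings was -0.23, with 30 of 42 fitted below 0. Uncalled changes included -1.08 for *crygm2d19* (SE 0.60) and 0.47 for *crygm2d16* (SE 0.62). With SEs of this size the few calls do not show that crystallin levels were steadier with age than those of other genes. In mutants 0 were called lower and 2 higher, against 6.06% lower and 5.36% higher over all genes, with 1 crystallin lower at an unadjusted p under 0.05 and 0 called lower by voom. The 2 that rose were CRYBB1 (log2 change 1.80, SE 0.31, adjusted p = 0.00413) and CRYGN on chromosome 2 (log2 change 1.45, SE 0.34, adjusted p = 0.0194). All their mutant libraries at 7 dpf lay above all those at 5 dpf. CRYBB1 was called in all 23 alternative settings of this comparison, and CRYGN on chromosome 2 lost its call in 6 of 23 (adjusted p up to 0.0734), among them without mutant replicate 1 or 3 at 7 dpf or replicate 1 or 2 at 5 dpf. Without mutant replicate 1 at 7 dpf, 5 were called lower in mutants with age (*crygm2d1*, *crygm2d11*, *crygm2d15*, *crygm2d16* and *crygm2d17*, log2 changes -1.46 to -1.99), against 3.92% of all tested genes in the same fit, and CRYBB1 remained called higher. The median change of the 42 in mutants was then -0.75.

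Whether the mutant effect changed from 5 to 7 dpf was tested directly, and the change was called for 0 crystallins, lower or higher, and for 0 of all 23648 tested genes by limma and by voom (0%), with 2455 genes at an unadjusted p under 0.05 in limma and 2180 in voom. At that unadjusted threshold there were 5 of the 42 tested crystallins, beside 2455 of all 23648 tested genes. The 2 shares are near each other, so that this count is not read as a result about the crystallins. All 5 were fitted with a weaker mutant effect at 7 dpf and 0 with a stronger one. All 10 tested beta crystallins were fitted with a smaller effect at 7 dpf (0.22 to 2.01, median 0.99 on the log2 scale), as were CRYAA and both gamma N genes. Of the 29 gamma M genes 19 were fitted the other way (median -0.10). The smallest adjusted p belonged to CRYBB1 (difference 2.01, adjusted p = 0.206), followed by CRYGN on chromosome 2 (1.54, adjusted p = 0.309). Without mutant replicate 1 at 7 dpf, 8 of the 10 beta crystallins (median 0.45), CRYAA and 1 of the 2 gamma N genes were still fitted with a smaller effect at 7 dpf, 25 of the 29 gamma M genes were fitted the other way (median -0.64), and again 0 crystallins were called. These fitted directions stand as values, and a difference between the classes in their course with age was not shown by a test.

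Other genes of the lens fibre cell were also low in mutants. Of 20 identifiers matched to a list of fibre genes other than crystallins, 15 were tested, and 9 were called lower and 1 higher at 5 dpf, where at 7 dpf it was 4 and 1 (medians -2.13 and -0.84). By voom these counts were 5 and 1 at 5 dpf and 2 and 1 at 7 dpf. Over all tested genes limma called 2.16% lower and 0.655% higher at 5 dpf, and 3.25% and 1.80% at 7 dpf. The genes called lower at both ages were BFSP2 (a beaded filament protein), *lim2.3* (a fibre membrane protein), LGSN (lengsin) and GRIFIN (a galectin-related lens protein). BFSP2 was at 6.69, 5.05 and 14.2 FPKM in siblings and 0.431, 1.11 and 0.117 in mutants at 5 dpf, and at 8.51, 5.33 and 17.3 and 4.23, 1.002 and 0.894 at 7 dpf. Its groups were apart at both ages (-3.10 and -2.19, adjusted p = 0.00911 and 0.0411), and its call at 7 dpf was lost in 13 of 24 alternative settings (adjusted p up to 0.145). The log2 changes of *lim2.3* were -2.58 and -1.66 (adjusted p = 0.00380 and 0.0320), those of LGSN -2.31 and -2.03 (0.00756 and 0.0112) and those of GRIFIN -2.36 and -1.86 (0.00844 and 0.0223). CAPN3, a calpain protease, was called at 5 dpf (-2.43, adjusted p = 0.00995), lost without mutant replicate 1 (0.0529), and the others called there were the 2 genes of the water channel MIP, *lim2.1* and the connexin GJE1. At 7 dpf the calls of *lim2.3* (adjusted p = 0.0613 to 0.119) and GRIFIN (0.0739 to 0.0967) were lost without mutant replicate 2 or 3 or sibling replicate 3, that of *lim2.3* also without sibling replicate 1, and that of LGSN without sibling replicate 3 (0.0523). GJA3 and a second CAPN3 gene were listed at 0 in all libraries.

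HSPB1, a small heat shock protein of the alpha crystallin superfamily that was placed in the fibre list and is not particular to the lens, went the other way. It was at 16.1, 20.04 and 13.01 FPKM in siblings and 32.7, 27.2 and 31.4 in mutants at 5 dpf (log2 change 0.89, SE 0.15, adjusted p = 0.00586). At 7 dpf it was at 8.03, 7.77 and 7.71 in siblings and 22.6, 23.7 and 23.01 in mutants (log2 change 1.501, SE 0.15, adjusted p = 0.000122), and every mutant library lay above every sibling library at both ages. Without HSPB1 the summed FPKM of the fibre list was 28.2, 45.3 and 71.5 in siblings and 6.19, 9.43 and 5.99 in mutants at 5 dpf, and 31.7, 21.4 and 61.97 and 19.3, 11.1 and 9.63 at 7 dpf. Mutant replicate 1 was again the highest mutant library at 7 dpf. Among the 13 tested small heat shock and other crystallin-named genes outside the rule, HSPB1 was the only one called by limma, at either age. By voom 3 were called higher at 5 dpf and 1 at 7 dpf, and 0 lower. At an unadjusted p under 0.05, 3 and 2 were higher and 0 lower. Of the 13, 11 were fitted above 0 at 5 dpf and 8 at 7 dpf. Over all tested genes 0.655% were called higher at 5 dpf and 1.80% at 7 dpf by limma, and 0.994% and 4.51% by voom.

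The listed transcription factors of the lens had smaller median changes than the crystallins. These are levels in whole larvae, and the change within the lens was not tested. Of 15 tested lens regulators, 0 were called at 5 dpf by limma and by voom, with 7 lower and 0 higher at an unadjusted p under 0.05 (medians -0.40 at 5 dpf and -0.15 at 7 dpf), and 3 were called lower at 7 dpf, MAFA (-1.26, adjusted p = 0.00360), PROX1 (-0.64, adjusted p = 0.0120) and 1 of 2 MAF genes (-0.66, adjusted p = 0.0457). At 7 dpf voom called 1 lower and 1 higher, and 4 were lower and 1 higher at an unadjusted p under 0.05. The shares called by limma over all tested genes were 2.16% lower and 0.655% higher at 5 dpf, and 3.25% and 1.80% at 7 dpf. Without sibling replicate 2 PROX1 was not called (0.0648), and the MAF gene lost its call without any of 9 single libraries (0.0579 to 0.134), which are all 6 of 7 dpf and mutant replicates 1 and 2 and sibling replicate 1 of 5 dpf. All 3 genes also act outside the lens. Of the 15, 12 were fitted below 0 at 5 dpf and 10 at 7 dpf. *pitx3*, needed for lens fibre differentiation, was at 6.14, 4.91 and 6.02 FPKM in siblings and 5.04, 5.20 and 6.43 in mutants at 5 dpf, and at 6.21, 7.01 and 5.34 and 4.95, 4.11 and 5.39 at 7 dpf, with overlapping groups. It is 1 uncalled gene of this list, measured in whole larvae, and does not stand for the others.

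Photoreceptor genes, read here as a second part of the eye, did not follow the crystallins at 7 dpf. Of 32 tested, 2 were called lower and 1 higher at 5 dpf, where at 7 dpf it was 0 and 4, with medians of -1.06 and 0.72. For this list and those that follow, the shares called over all tested genes were 2.16% lower and 0.655% higher at 5 dpf. At 7 dpf these shares were 3.25% and 1.80%. At 5 dpf 29 of the 32 were fitted below 0 and 20 were lower at an unadjusted p under 0.05. At 7 dpf 0 were lower by voom or at an unadjusted p under 0.05, and 31 were fitted above 0. Their summed FPKM was 472 to 974 in siblings and 202 to 355 in mutants at 5 dpf, and 67.8 to 155 in siblings and 123 to 303 in mutants at 7 dpf. With age in siblings 24 of 32 were called lower, against 13.0% of all tested genes. GNGT2, a cone transducin subunit, was among the genes called lower at 5 dpf. The green cone opsin *opn1mw2* was called higher at both ages (2.52 and 3.61, adjusted p = 0.0164 and 0.00122), and PDE6C, ROM1 and *grk1b* were called higher at 7 dpf. Each of these calls but that of *opn1mw2* at 7 dpf was lost without at least 1 single library (adjusted p up to 0.14). Among 18 other retina genes 2 were called lower at 5 dpf, VSX1 and *atoh7*, and 2 higher at 7 dpf, *rlbp1b* and *apoeb*. Of the pigment list (12 tested) RPE65 and *pmelb* were higher at 7 dpf, of skeletal muscle (12 tested) BAG3 at 5 dpf and ACTA1 at 7 dpf, and 0 of 6 cornea and skin genes were called at either age by limma or voom, with 0 and 1 at an unadjusted p under 0.05. The medians of the last 3 lists ran from -0.18 to 0.23. Leaving out 1 library ended the calls of VSX1, *rlbp1b*, *apoeb*, BAG3 and ACTA1 (adjusted p up to 0.163). What part, if any, of the crystallin change goes with the retina was not tested.

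**Figure D5:**
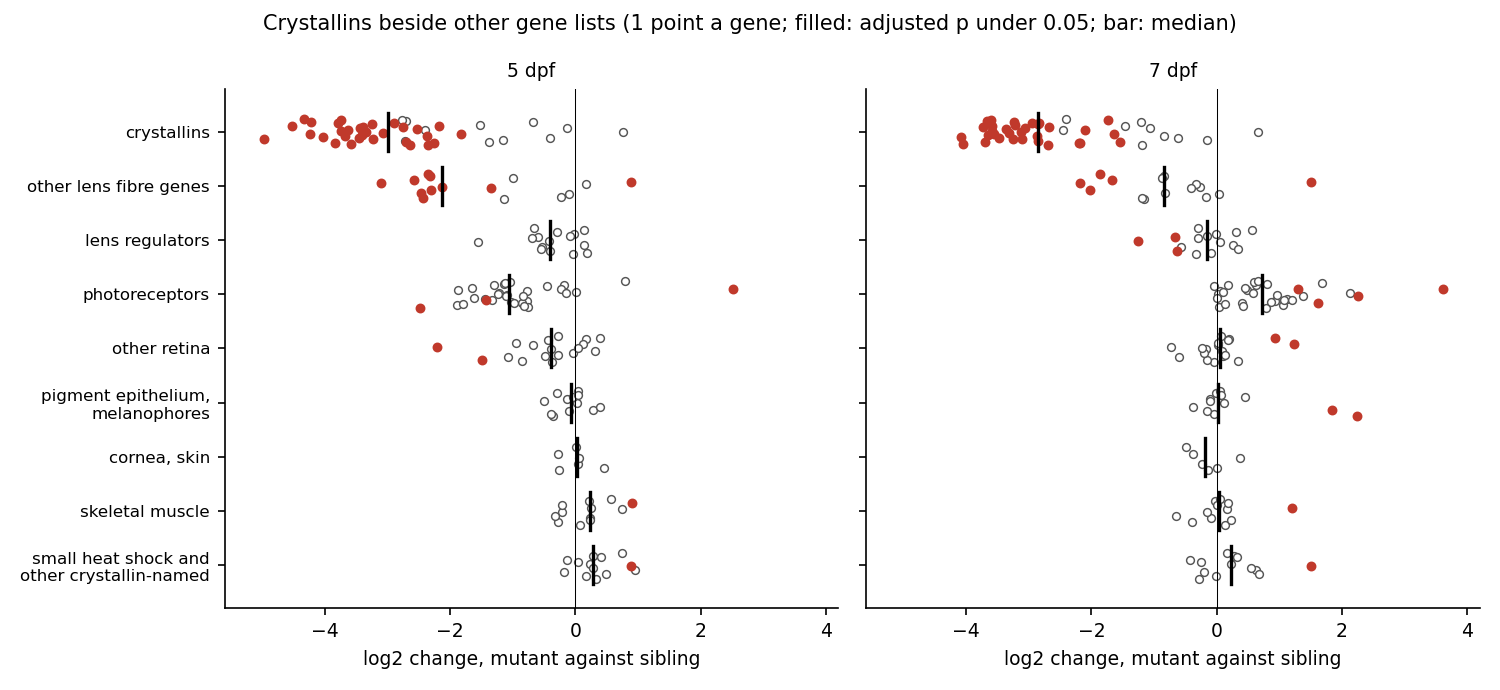
Log2 change between mutants and siblings of every tested gene of the crystallins and of 8 other lists at 5 and 7 dpf (filled, adjusted p under 0.05; bar, median). The medians of the crystallins are -2.98 and -2.86, those of the other lens fibre genes -2.13 and -0.84, and those of the photoreceptors -1.06 and 0.72.

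Among genes outside the rule with a mean of at least 5 FPKM, those whose levels ran most like the summed crystallins over the 12 libraries were, in this order, *si:ch211-255g12.6* (Pearson r = 0.989), 2 genes of the zymogen granule protein SYCN (0.961 and 0.955), *si:dkey-69o16.5* (0.948), the connexin *gja13.1* (0.943), the elastase *cela1.4* (0.943), the water channel *aqp12* (0.942) and the trypsin-like protease *prss59.2* (0.939). The points share the 4 groups, so that any gene lower in mutants at both ages scores high, and all 8 were called lower at both ages. After the group means were removed, r was 0.944 for *si:ch211-255g12.6* and 0.458 to 0.804 for the other 7. *si:ch211-255g12.6* (ENSDARG00000094310, chromosome 8) had mean levels of 213 FPKM in siblings and 14.1 FPKM in mutants at 5 dpf, and 136 and 16.4 FPKM at 7 dpf. The 5 genes of the exocrine pancreas among the 8 summed to 4837, 5639 and 6117 FPKM in siblings and 532, 55.5 and 50.4 in mutants at 7 dpf. At 5 dpf they summed to 2004, 3826 and 2954 in siblings and 49.7, 213 and 205 in mutants. Mutant replicate 1 was the highest mutant library of this sum at 7 dpf, as in the crystallins, and the lowest at 5 dpf, where replicate 3 was the lowest for the crystallins. Within the crystallins, r to the sum after removing the group means was over 0.9 for most abundant genes, as for *crygm2d18* (0.996) and CRYBA2 on chromosome 9 (0.981), and was 0.437 for CRYBB1, 0.490 for CRYGN on chromosome 2 and 0.614 for *crygm2d20*. Each crystallin is itself part of the sum, so that a high r of an abundant member is partly built in. These values are therefore not comparable with those of the genes outside the rule.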

How the data were processed

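RNA-seq covered 12 pools of whole zebrafish larvae, 3 for each genotype and age. The authors deposited a table of FPKM per gene for each library (GRCz11 coordinates). The submitters' processing notes name HISAT2 v2.0.5, while counting, strand and multi-mapped reads were points not given in the sources used here. GEO's labels did not say that pools came from separate crosses, so p-values measure the spread between these samples.

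FPKM were multiplied by gene length and a library factor to recover whole reads (100% of values up to 10000 reads within 0.01 reads), 13403615 to 15084280 a library. Genes reaching 0.5 FPKM in 3 libraries were tested with limma 3.58.1 (R 4.3.3) on log2(FPKM + 0.5), with 1 mean per group over all 12 libraries and Benjamini-Hochberg adjustment over 23648 genes. The rule for named genes took every alpha gene, the 3 most abundant of each other class, up to 12 called genes by adjusted p, and the largest change of each class at each age. Same-numbered libraries deviated together at 5 dpf (correlations 0.129 to 0.272 in 3 pairs) and not at 7 dpf (-0.0232 to 0.0868). Alternatives were other pseudocounts, filters and scalings, voom on recovered reads, library weights, the replicate block, a fit of 2 groups and leaving out each library. The code was tested on simulated data. The 8 gene lists (123 symbols, 11 unmatched, 143 identifiers) and the crystallins were chosen with earlier results of these data known. Gene symbols came from the gene name tables, some by synonym. Sequences were not used here.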

Additional observations from a re-analysis of the deposited data

How the results depend on the processing

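No crystallin called lower at either age was called higher in any of the settings run. The count called lower at 7 dpf was 19 in a fit of the 2 groups alone, and leaving out single libraries moved it from 16 to 36 and that at 5 dpf from 20 to 33. With the replicate block the counts were 29 at 5 dpf and 32 at 7 dpf, where CRYAA (adjusted p = 0.0694), *cryba1l2* (0.0777) and *crygm2d6* (0.0567) lost their calls at 5 dpf, *crygm2d20* (0.0529) and, among the other genes named, BFSP2 (0.0721), MAF (0.0923), *grk1b* (0.058), PDE6C (0.0584) and *rlbp1b* (0.0505) at 7 dpf, and *crygm2d5* at 5 dpf (0.0111) and *crygm2d9* at 7 dpf (0.0425) gained one. The age comparisons were not run with the block, whose terms lie within an age.

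With age in siblings 0 crystallins were called lower with a pseudocount of 0.1, a filter at 1 FPKM or without the 2 libraries that stood apart, 2 by voom, and 2 higher without a filter (0 to 2 lower and 1 to 2 higher over the single left-out libraries). In mutants 1 was lower with a pseudocount of 0.1 or library weights and 5 without those 2 libraries, and 1 higher by voom and 1 without them (0 to 5 lower and 1 to 2 higher over the left-out libraries). The log2 ratio of summed FPKM ranged over left-out libraries from -2.71 to -0.60 for alpha, -4.11 to -2.18 for beta A, -4.17 to -2.67 for gamma M and -4.36 to -2.46 for gamma N and S at 7 dpf, and from -5.18 to -3.78 for gamma N and S at 5 dpf. Uncalled changes turned direction for *crygm2e* at 5 dpf (0.27 without sibling replicate 3, range -0.51 to 0.27), VSX1 at 7 dpf (0.12 without sibling replicate 3, -0.37 to 0.12), BAG3 at 7 dpf (-0.0083 without mutant replicate 3, to 0.30) and *rlbp1b* at 5 dpf (-0.12 without mutant replicate 1, to 0.35). The cause was not tested. Scaling to total reads, TPM or voom moved the median change of all genes upward by 0.10 to 0.19 at 5 and 7 dpf, less than any called crystallin changed. Over single genes and settings, 2852 results kept direction and side of the threshold, 317 lost a call and 34 gained one. Genes under about 100 reads in all are limited by depth.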
